A study of Mus musculus with 6 samples.

Results

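The major histocompatibility complex (MHC) class II genes and Ciita were followed in mouse bone marrow cultures grown with GM-CSF on substrates of 50 kPa or 2 kPa. The members were chosen by symbol: H2-Aa, H2-Ab1, H2-Eb1, H2-Eb2, H2-DMa, H2-DMb2, H2-Oa, H2-Ob, Cd74 and Ciita, 10 of 24062 gene rows. All 10 had enough counts to be among the 13155 genes tested. Marrow was taken from leg bones of C57BL/6J mice and fed with GM-CSF at 20 ng/ml, a growth factor for dendritic cells and macrophages. The 3 high tension libraries were from 50 kPa cultures, a stiffness met in fibro-inflammatory disease, and the 3 low tension libraries from 2 kPa cultures, near the physiological range. Sample titles name dendritic cells, but no sorting step is described, and values are averages over whole cultures. Separate animals or cultures for the replicates are not stated, so p-values speak only of the spread among these libraries, which could be technical. The comparison asks how stiffness alters transcription in such a culture, here for the genes that present antigen to CD4 T cells.

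Class II molecules are pairs of an α and a β chain that carry peptides from endosomes to the cell surface. In the mouse, I-A is built from H2-Aa and H2-Ab1, and I-E from an H2-Ea and an H2-Eb1 chain. Cd74, the invariant chain, occupies the peptide groove during transport and is then cut away by endosomal proteases. H2-DM, made of H2-DMa and a H2-DMb chain, exchanges the remnant of Cd74 for peptide, and H2-O, made of H2-Oa and H2-Ob, restrains H2-DM. CIITA, the product of Ciita, binds no DNA itself. It is recruited by RFX and NF-Y proteins that sit on a pair of conserved elements, the X box and the Y box, ahead of class II genes, and it is known as the limiting factor for their transcription. In dendritic cells Ciita is known to be shut off on maturation, while class II protein is held at the surface.

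The class II region of mouse chromosome 17 holds 8 of the members. On GRCm38, by the GENCODE vM21 annotation, H2-Oa lies at 34092340 to 34095234, H2-DMa at 34119541 to 34139101, H2-DMb2 at 34143307 to 34151555, H2-Ob at 34238903 to 34254414, H2-Ab1 at 34257689 to 34269419, H2-Eb1 at 34305867 to 34316674 and H2-Eb2 at 34325665 to 34341412, all on the plus strand. H2-Aa lies among them at 34282744 to 34287823 on the minus strand.

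RefSeq promoter windows on GRCm38.p6, each from 250 bases before to 50 bases after a gene start, were found for 7 of the 10 members. They were searched only on the strand of the gene. The pattern was GCAAC, the core of the X box, followed after 25 to 28 bases by ATTGG, the core of the Y box. It was chosen after these windows had been seen. The pattern was present in 5 of the 7 members and, counting either strand, in 0.201% of all 32851 windows. The pairs are shown because they mark the element through which CIITA is known to act, and because H2-Eb1 and H2-Eb2 carry both cores at the same distance while their mean levels lay on opposite sides between the stiffnesses. Capitals mark GCAAC and ATTGG, and each sequence runs 5′ to 3′ on the strand of its gene.
H2-Aa, chr17:34287857-34287914, minus strand: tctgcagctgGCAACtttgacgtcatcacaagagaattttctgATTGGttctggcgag
H2-Eb1, chr17:34305766-34305822, plus strand: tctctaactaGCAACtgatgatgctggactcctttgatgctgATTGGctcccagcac
H2-Eb2, chr17:34325533-34325589, plus strand: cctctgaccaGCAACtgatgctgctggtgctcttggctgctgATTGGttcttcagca
H2-Oa, chr17:34092293-34092350, plus strand: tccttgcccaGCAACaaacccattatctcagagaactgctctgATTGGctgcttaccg
H2-Ob, chr17:34238808-34238862, plus strand: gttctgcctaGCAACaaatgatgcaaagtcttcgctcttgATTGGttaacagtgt
H2-DMb2, chr17:34145116-34145173, plus strand: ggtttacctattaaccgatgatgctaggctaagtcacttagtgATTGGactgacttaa
The gap between the elements was 28 bases in H2-Aa and H2-Oa, 27 in H2-Eb1 and H2-Eb2 and 25 in H2-Ob. ATTGG began 48 bases before the start of H2-Aa, 59 before that of H2-Eb1 and 100 before that of H2-Eb2. The H2-DMb2 window held ATTGG, 90 bases before the start, without GCAAC at that distance. A search for exact bases cannot tell whether a window holds an X box with other bases. On the strand of the gene, neither of the 2 windows of H2-DMa held the pair. The H2-DMa windows, at 34122582 to 34122881 and 34125268 to 34125567, do not cover its GENCODE start at 34119541. Nor does the H2-DMb2 window, at 34144999 to 34145298, cover the H2-DMb2 start at 34143307. Whether the pair lies ahead of those starts is not shown by these windows. ATTGG alone was in 37.4% of all windows, counting either strand.

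The classical class II genes and Cd74 stood 1.95-fold (Cd74) to 2.41-fold (H2-Aa) higher at 50 kPa than at 2 kPa, with no overlap between the groups, while Ciita did not differ beyond the spread between libraries. The levels of H2-Aa, H2-Ab1, H2-Eb1, H2-DMb2, H2-Oa, H2-Ob and Cd74 in all 3 libraries at 50 kPa lay above all 3 at 2 kPa, 7 of 10 members, where 17.2% of tested genes were separated in that direction and 34.1% in either. H2-Eb2 was the single member with a lower mean at 50 kPa. None of these differences passed the test across all genes: edgeR's quasi-likelihood test called 0 of 10 members at a Benjamini-Hochberg adjusted p under 0.05, beside 3.45% of all 13155 genes tested, 1.47% higher and 1.98% lower. At an unadjusted p under 0.05 it gave 7 members higher and 1 lower, beside 13.0% and 14.8% of tested genes. DESeq2 called 5 members higher (H2-Aa, H2-Ab1, H2-Eb1, H2-Ob and Cd74) and 1 lower (H2-Eb2), beside 8.52% and 9.51% of tested genes. The median log2 fold change, 50 kPa over 2 kPa, was 0.85 over the members and -0.03 over all tested genes. These are averages over mixed cells, in which fewer cells of a type and less RNA per cell cannot be told apart.

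**Figure D1:**
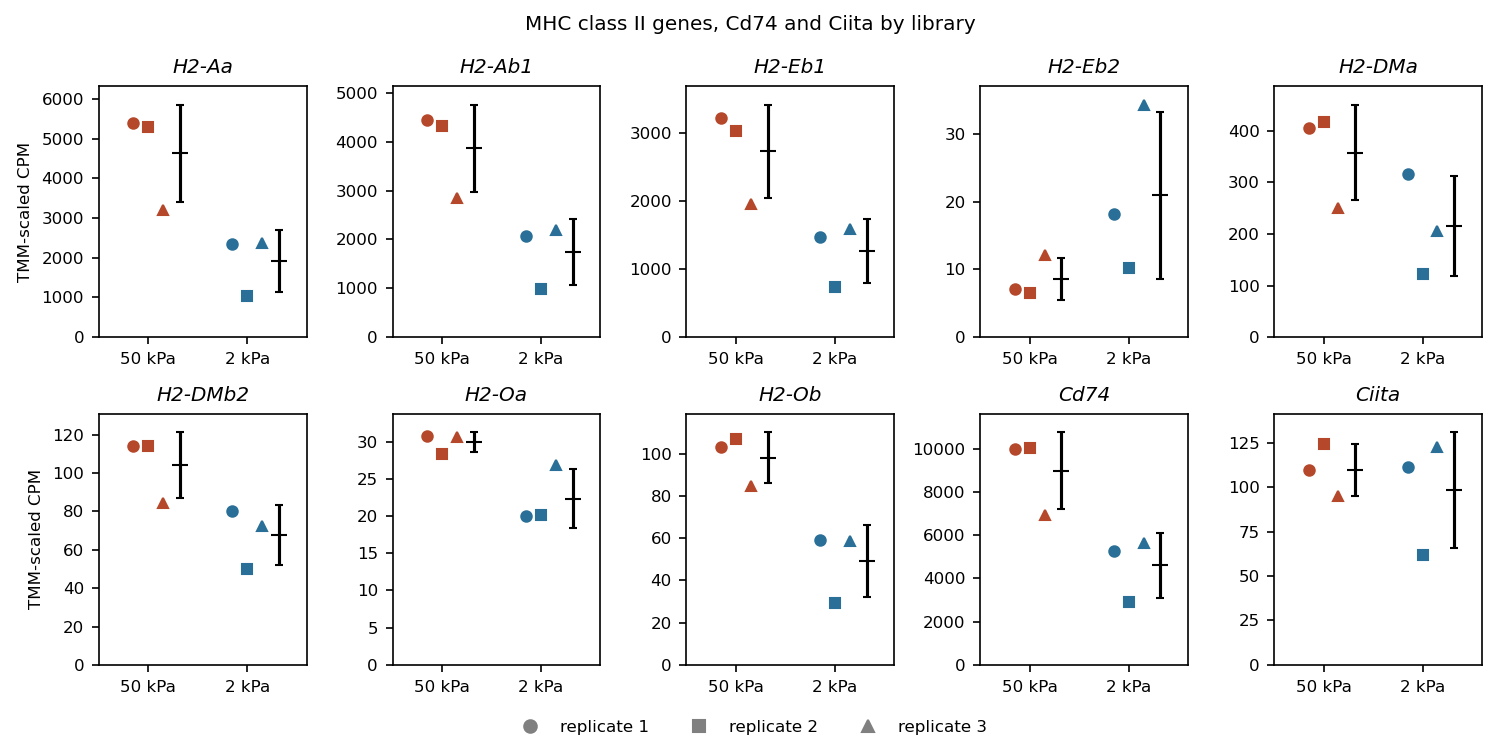
Level of each member in TMM-scaled CPM (y axis from 0) at 50 kPa (left, red) and 2 kPa (right, blue). Symbols are the 3 libraries of a stiffness and bars the mean ± SD (n = 3); 7 of the 10 members do not overlap between the groups, Ciita overlaps, and H2-Eb2 runs the other way.

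Libraries held 33.8 M to 36.3 M counts. Levels are given as normalised CPM, counts per 1 M of the TMM-scaled library, and as mean ± SD over n = 3 libraries. The libraries were not evenly spread. On the first principal component of log2 CPM, 50 kPa replicates 1 and 2 lay at 54.5 and 59.5 and 2 kPa replicates 2 and 3 at -57.4 and -51.5, while 50 kPa replicate 3 (8.06) and 2 kPa replicate 1 (-13.1) lay between them. 50 kPa replicates 1 and 2 differed far less than any other pair (chi-square per degree of freedom 6.71, while replicates of 1 stiffness otherwise gave 126 to 233), and their values below are close throughout. With their counts summed into 1 sample edgeR called 0 members in either direction, and 2 members kept an unadjusted p under 0.05.

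H2-Aa, the α chain of I-A, had 5386, 5283 and 3206 CPM in the 50 kPa libraries, against 2355, 1029 and 2382 CPM in the 2 kPa libraries. The lowest library at 50 kPa was replicate 3 and the lowest at 2 kPa replicate 2, and the groups did not overlap. Its log2 fold change was 1.27 ± 0.39 (SE, edgeR adjusted p = 0.11). H2-Ab1, the β chain of I-A, had 4433, 4328 and 2840 CPM at 50 kPa and 2065, 977 and 2192 CPM at 2 kPa, in the same pattern (1.15 ± 0.36, edgeR adjusted p = 0.114). The number of H2-Aa counts per H2-Ab1 count was 1.22, 1.22 and 1.13 at 50 kPa and 1.14, 1.05 and 1.09 at 2 kPa. This proportion overlapped between the groups and varied little in any library.

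H2-Eb1, the β chain of I-E, had 3217, 3037 and 1951 CPM at 50 kPa, against 1469, 733 and 1597 CPM at 2 kPa, without overlap (1.11 ± 0.35, edgeR adjusted p = 0.115). Its partner is known to be defective in the C57BL strain, and the H2-Ea-ps row held 0 or 1 count in every library. H2-Eb1 counts per H2-Ab1 count ranged from 0.687 to 0.726 at 50 kPa and from 0.712 to 0.750 at 2 kPa. The groups overlapped, so the H2-Eb1 level tracked that of H2-Ab1 although the I-E α chain row was at or near 0.

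Cd74, on chromosome 18 at 60803848 to 60812652, was the most abundant member, with 9988, 10048 and 6959 CPM at 50 kPa and 5281, 2900 and 5650 CPM at 2 kPa. The groups did not overlap, and replicate 2 was again the lowest library at 2 kPa (0.96 ± 0.33, edgeR adjusted p = 0.132). Cd74 counts per H2-Ab1 count were 2.25, 2.32 and 2.45 at 50 kPa, below the 2.56, 2.97 and 2.58 at 2 kPa. H2-Aa, H2-Ab1, H2-Eb1 and Cd74 together took 1.43% to 2.19% of all counts at 50 kPa and 0.652% to 1.19% at 2 kPa.

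H2-DMa, the α chain of the peptide exchanger, had 405, 418 and 251 CPM at 50 kPa and 316, 123 and 206 CPM at 2 kPa. 2 kPa replicate 1 lay above 50 kPa replicate 3, so the groups overlapped (0.73 ± 0.37, edgeR adjusted p = 0.247). That value depended on single libraries, at 1.12 without 2 kPa replicate 1 and 0.45 without 2 kPa replicate 2. H2-DMb2, a β chain of H2-DM, had 114, 114 and 84.1 CPM at 50 kPa and 80.2, 50.01 and 72.2 CPM at 2 kPa, without overlap (0.62 ± 0.21, edgeR adjusted p = 0.125). Of its 50-base stretches in annotated transcripts 21.2% also occur in H2-DMb1, the neighbouring β chain gene, so counts of the pair may be split between them. H2-DMb1 had 395, 398 and 276 CPM at 50 kPa and 244, 111 and 231 CPM at 2 kPa, also without overlap (0.87 ± 0.32, edgeR adjusted p = 0.151).

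H2-Oa and H2-Ob, the chains of the H2-DM inhibitor, are known chiefly from B cells and some dendritic cells. H2-Ob had 103, 107 and 84.6 CPM at 50 kPa and 59.3, 29.5 and 58.6 CPM at 2 kPa, without overlap (1.00 ± 0.28). Its edgeR adjusted p of 0.0906 was the lowest among the members. H2-Oa had 30.7, 28.4 and 30.6 CPM at 50 kPa and 20.0, 20.1 and 26.9 CPM at 2 kPa (0.42 ± 0.14, edgeR adjusted p = 0.121), and here 50 kPa replicate 3 did not stand below the others. The groups were separated by a small gap. H2-Ob counts per H2-DMa count were 0.255, 0.256 and 0.338 at 50 kPa and 0.188, 0.240 and 0.284 at 2 kPa, which overlap, as did H2-Oa counts per H2-DMa count.

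H2-Eb2, a second and weakly transcribed Eb-type β chain gene, had 7.12, 6.51 and 12.2 CPM at 50 kPa and 18.2, 10.2 and 34.3 CPM at 2 kPa. Its highest library was 2 kPa replicate 3, and 50 kPa replicate 3 lay above 2 kPa replicate 2, so the groups overlapped. The log2 fold change was -1.28 ± 0.48 (edgeR adjusted p = 0.149), and -0.72 without 2 kPa replicate 3. H2-Eb2 counts per 1 count of H2-Eb1 were 0.00222, 0.00214 and 0.00624 at 50 kPa and 0.0124, 0.0139 and 0.0215 at 2 kPa, which did not overlap. None of its 50-base stretches in annotated transcripts occur in another annotated gene.

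**Figure D2:**
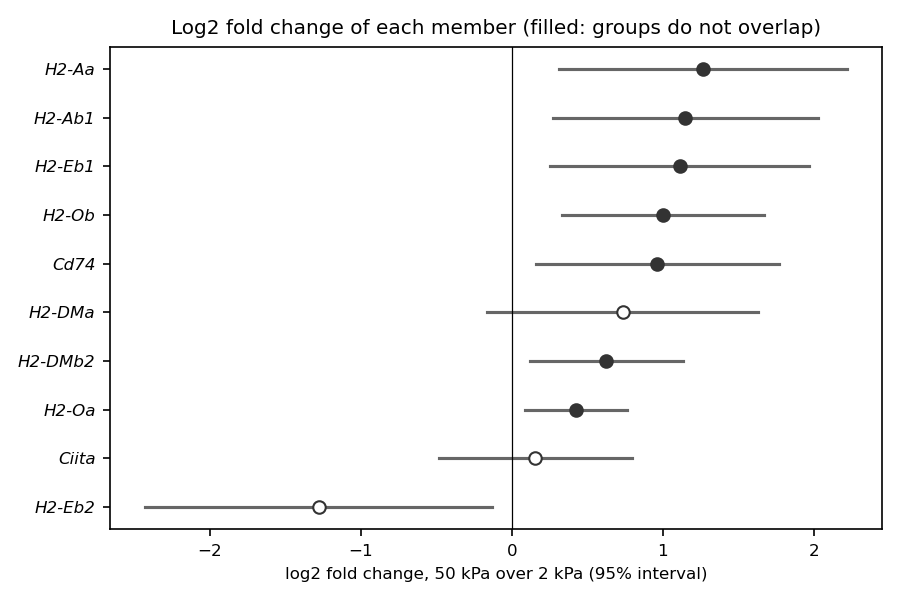
Log2 fold change of each member, 50 kPa over 2 kPa (x axis), with its 95% interval from the edgeR fit. Filled symbols mark members whose groups do not overlap; H2-Aa is at 1.27, Ciita at 0.16 with an interval of -0.48 to 0.79, and H2-Eb2 at -1.28.

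Ciita, on chromosome 16 at 10480059 to 10528418, had 110, 124 and 94.9 CPM at 50 kPa, against 111, 61.6 and 123 CPM at 2 kPa. 2 kPa replicate 2 was the lowest of all libraries, and the other 2 kPa libraries lay within the range of the 50 kPa libraries. The log2 fold change was 0.16 ± 0.26 (edgeR adjusted p = 0.714; 95% interval -0.48 to 0.79), and -0.09 without 2 kPa replicate 2. An interval of that width does not show equal levels. Over 329 bases its exons lie opposite exons of Dexi, and no source used here says whether counting used strand. The same holds for H2-Oa and BC051537. Dexi stood at 20.5, 21.7 and 17.5 CPM at 50 kPa and at 19.1, 15.9 and 17.4 CPM at 2 kPa. Ciita is known to have several promoters used by different cell types, and counts per gene do not separate them.

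Set side by side, Ciita and its targets did not follow the same order of libraries. By Ciita the order from highest to lowest was 50 kPa replicate 2, 2 kPa replicates 3 and 1, 50 kPa replicates 1 and 3, and 2 kPa replicate 2. By H2-Aa, H2-Ab1 or H2-Eb1 it was 50 kPa replicates 1, 2 and 3, then 2 kPa replicates 3, 1 and 2. Summed over H2-Aa, H2-Ab1, H2-Eb1 and Cd74, class II transcript came to 23024, 22696 and 14957 CPM at 50 kPa and 11170, 5639 and 11821 CPM at 2 kPa, with means of 20226 ± 4566 CPM at 50 kPa and 9543 ± 3397 CPM at 2 kPa (SD, n = 3 each). Within 2 kPa the sum and Ciita were both lowest in replicate 2, but 50 kPa replicate 1 had about as much Ciita as 2 kPa replicate 1 (110 and 111 CPM) with more than 2 times the sum.

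The number of class II counts per Ciita count, a ratio taken within each library that does not depend on the scaling between libraries, was 210, 182 and 158 at 50 kPa and 101, 91.5 and 96.4 at 2 kPa. The mean was 183 ± 26.2 at 50 kPa and 96.2 ± 4.52 at 2 kPa (SD, n = 3 each), 1.91-fold higher at 50 kPa, and the lowest library at 50 kPa lay well above the highest at 2 kPa. For Cd74 alone the ratio was 91.1, 80.7 and 73.3 at 50 kPa, against 47.6, 47.1 and 46.1 at 2 kPa, an SD of 0.746 around 46.9 although Ciita itself ranged from 61.6 to 123 CPM in those libraries. H2-Ob per Ciita was 0.897 ± 0.0412 at 50 kPa and 0.497 ± 0.0321 at 2 kPa. H2-DMa and H2-Oa per Ciita overlapped between the groups, and H2-Eb2 per Ciita was lower in every library at 50 kPa (0.0523 to 0.128) than at 2 kPa (0.164 to 0.280). These ratios of unequal gene lengths are given as descriptions, with no test.

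**Figure D3:**
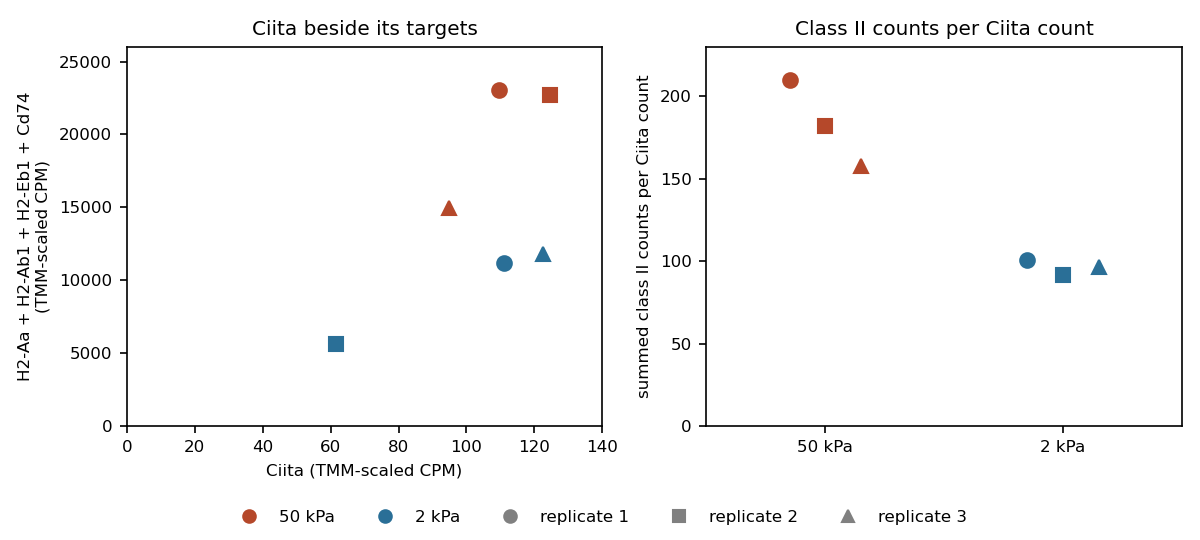
Left, summed H2-Aa, H2-Ab1, H2-Eb1 and Cd74 against Ciita by library, both in TMM-scaled CPM; right, class II counts per Ciita count. Red symbols are 50 kPa and blue 2 kPa libraries: at similar Ciita levels the 50 kPa libraries hold more class II transcript, and the ratio is 158 to 210 at 50 kPa and 91.5 to 101 at 2 kPa.

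Per length of exon sequence, in CPM per kb averaged over a stiffness, the members ranged over 3 orders of magnitude. At 50 kPa Cd74 (5359) was followed by H2-Ab1 (1506), H2-Eb1 (1407) and H2-Aa (1218), then H2-DMa (104), H2-DMb2 (59.5), H2-Oa (21.3), H2-Ob (18.3), Ciita (11.5) and H2-Eb2 (2.54). At 2 kPa the levels were 2746 for Cd74, 679 for H2-Ab1, 651 for H2-Eb1, 506 for H2-Aa, 62.4 for H2-DMa, 38.6 for H2-DMb2, 15.9 for H2-Oa, 10.3 for Ciita, 9.13 for H2-Ob and 6.17 for H2-Eb2. Among neighbours in this order, the ranges of H2-Ab1, H2-Eb1 and H2-Aa overlapped at both stiffnesses. H2-DMa overlapped H2-DMb2 at 2 kPa but not at 50 kPa. The ranges of Ciita, H2-Ob and H2-Eb2 overlapped at 2 kPa, though within each 2 kPa library Ciita lay above H2-Ob and H2-Ob above H2-Eb2. At 50 kPa H2-Ob lay above Ciita in every library (15.7 to 19.9, and 9.96 to 13.1 CPM per kb). The lengths join all annotated exons of a gene, 9535 bases for Ciita and 5380 for H2-Ob, and the order depends on them. In CPM, without length, Ciita (110, 124 and 94.9) lay above H2-Ob (103, 107 and 84.6) in every 50 kPa library.

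Genes were ordered by Pearson's r of their log2 CPM with that of Ciita over the 6 libraries. Members, predicted genes, Rik genes, pseudogenes, small RNAs and genes with a mean under 5 CPM were left out. The genes most like Ciita were then Homer1, Pgs1, Isoc2a, Rhoh and Prr5l, with r from 0.985 to 0.995. Homer1, the closest, had 29.4, 30.7 and 27.3 CPM at 50 kPa and 28.8, 20.8 and 31.2 CPM at 2 kPa, with 2 kPa replicate 2 the lowest, as in Ciita. Ranked by r over all 13155 tested genes, with none left out, H2-DMa was the member nearest to Ciita, at rank 643 (r = 0.791). H2-Aa, H2-Ab1, H2-Eb1, H2-DMb2, H2-Ob and Cd74 lay at ranks 722 to 794, with r from 0.768 to 0.778. H2-Oa had r = 0.501. H2-Eb2 was the farthest, at rank 4827 (r = 0.184). With 6 libraries, of which 3 share each stiffness, such likeness is a description only.

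The factors that assemble with CIITA on the X and Y boxes stood close to the median of all genes. Of 11 tested genes of this list 0 were called in either direction by edgeR, 4 had a positive log2 fold change and 7 a negative one, and the median was -0.09, beside 3.45% called and a median of -0.03 over all tested genes. By edgeR 0 were higher and 1 lower at an unadjusted p under 0.05, beside 13.0% and 14.8% of tested genes. DESeq2 called 1 lower, beside 9.51%. In 3 of the 11 the groups separated with 50 kPa higher and in 2 with 50 kPa lower, beside 17.2% and 16.9% of tested genes. Nfyc, a subunit of NF-Y, had 17.4, 16.7 and 17.85 CPM at 50 kPa and 21.5, 22.7 and 20.7 CPM at 2 kPa (-0.32 ± 0.09, edgeR adjusted p = 0.0915). Nfya, another NF-Y subunit named after its values were seen, ran the other way without overlap. It had 136, 139 and 151 CPM at 50 kPa and 112, 102 and 135 CPM at 2 kPa (0.29 ± 0.13, edgeR adjusted p = 0.197). Crebbp, a coactivator gene, stood at -0.34 ± 0.15 (edgeR adjusted p = 0.196). Rfx5, the subunit of RFX that binds the X box, named after its values were seen, had 28.6, 30.8 and 34.6 CPM at 50 kPa and 27.5, 23.8 and 55.1 CPM at 2 kPa, which overlap.

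Of 15 tested genes known to act on Ciita transcription, 0 were called by edgeR, beside 3.45% of all tested genes. In this list 5 had a positive and 10 a negative fold change, beside 6994 negative of all 13155 tested genes, and the median was -0.26. At an unadjusted p under 0.05 edgeR gave 0 higher and 2 lower, beside 13.0% and 14.8% of tested genes. DESeq2 called 1 lower, beside 9.51%. The smallest p-values belonged to Myd88, the adaptor of Toll-like receptors (-0.58 ± 0.18, edgeR adjusted p = 0.109), and Usf1, a factor of an interferon-responsive Ciita promoter (-0.25 ± 0.10, edgeR adjusted p = 0.158). Irf1, a factor of the interferon γ response that acts on Ciita, was named after its values were seen. It had 80.7, 80.3 and 130 CPM at 50 kPa and 156, 113 and 462 CPM at 2 kPa, which overlap (-1.33 ± 0.55, edgeR adjusted p = 0.18). It was highest in 2 kPa replicate 3, where H2-Eb2 was also highest.

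Genes of the compartment in which class II molecules mature were mostly higher on average at 50 kPa, though edgeR called 0 of 13 tested in either direction. A positive fold change was found for 12 of the 13, beside 6161 of all 13155 tested genes, and the median was 0.40. At an unadjusted p under 0.05 edgeR gave 4 higher and 0 lower, beside 13.0% and 14.8% of tested genes, and DESeq2 called 2 higher, beside 8.52%. Ifi30, the thiol reductase that unfolds antigens (GILT), had 291, 298 and 192 CPM at 50 kPa and 139, 88.7 and 125 CPM at 2 kPa, without overlap (1.15 ± 0.24, edgeR adjusted p = 0.0563). Ctsh, a cathepsin, stood at 0.37 ± 0.13 (edgeR adjusted p = 0.142). Ctss, the protease known to make the last cut in Cd74, was named after its values were seen. It had 8816, 8901 and 7631 CPM at 50 kPa and 5615, 2772 and 5496 CPM at 2 kPa (0.87 ± 0.32, edgeR adjusted p = 0.15), with 2 kPa replicate 2 lowest, as in Cd74.

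Genes that set the turnover of class II protein at the surface gave 0 calls among 6 by edgeR, beside 3.45% of tested genes, with a median of 0.12. At an unadjusted p under 0.05 edgeR gave 1 higher and 1 lower, beside 13.0% and 14.8%. DESeq2 called 1 lower, beside 9.51%. March8, a ubiquitin ligase of membrane proteins, had 104, 104 and 83.4 CPM at 50 kPa and 84.2, 62.9 and 69.3 CPM at 2 kPa (0.43 ± 0.15, edgeR adjusted p = 0.13). Cd83, which protects class II from such ligases in maturing dendritic cells, had 122, 109 and 153 CPM at 50 kPa and 171, 182 and 276 CPM at 2 kPa, without overlap (-0.71 ± 0.23, edgeR adjusted p = 0.116).

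Of 9 other tested genes of the class II region edgeR called 0, beside 3.45% of tested genes, and DESeq2 called 0. At an unadjusted p under 0.05 edgeR gave 1 higher (H2-DMb1) and 0 lower, beside 13.0% and 14.8%. The median was -0.29, and 7 of the 9 had a negative fold change, beside 6994 of all 13155 tested genes. The groups separated with 50 kPa higher in 1 of the 9 (H2-DMb1) and with 50 kPa lower in 0, beside 17.2% and 16.9% of tested genes. Brd2, next to H2-DMa and overlapping 360 bases of its exons on the other strand, had 245, 247 and 289 CPM at 50 kPa and 273, 299 and 377 CPM at 2 kPa (-0.28 ± 0.16, edgeR adjusted p = 0.291). Among 6 tested class I counterparts edgeR called 0, and DESeq2 called 1 higher, beside 8.52% of tested genes. At an unadjusted p under 0.05 edgeR gave 2 higher and 0 lower, beside the same 13.0% and 14.8%. Of the 6, 3 had a positive and 3 a negative fold change. B2m, the light chain of class I, had 5708, 5438 and 6473 CPM at 50 kPa and 3412, 2945 and 4886 CPM at 2 kPa (0.65 ± 0.25, edgeR adjusted p = 0.164). H2-D1, a class I gene, had 3500, 3404 and 3388 CPM at 50 kPa and 2309, 1542 and 2826 CPM at 2 kPa (0.62 ± 0.25, edgeR adjusted p = 0.173). Neither B2m nor H2-D1 overlapped between the groups. Nlrc5, the class I transactivator, named after its values were seen, averaged 84.9 ± 48.7 CPM at 50 kPa and 186 ± 143 CPM at 2 kPa (SD, n = 3 each). It was highest in replicate 3 of each stiffness (-1.13 ± 0.62, edgeR adjusted p = 0.277).

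**Figure D4:**
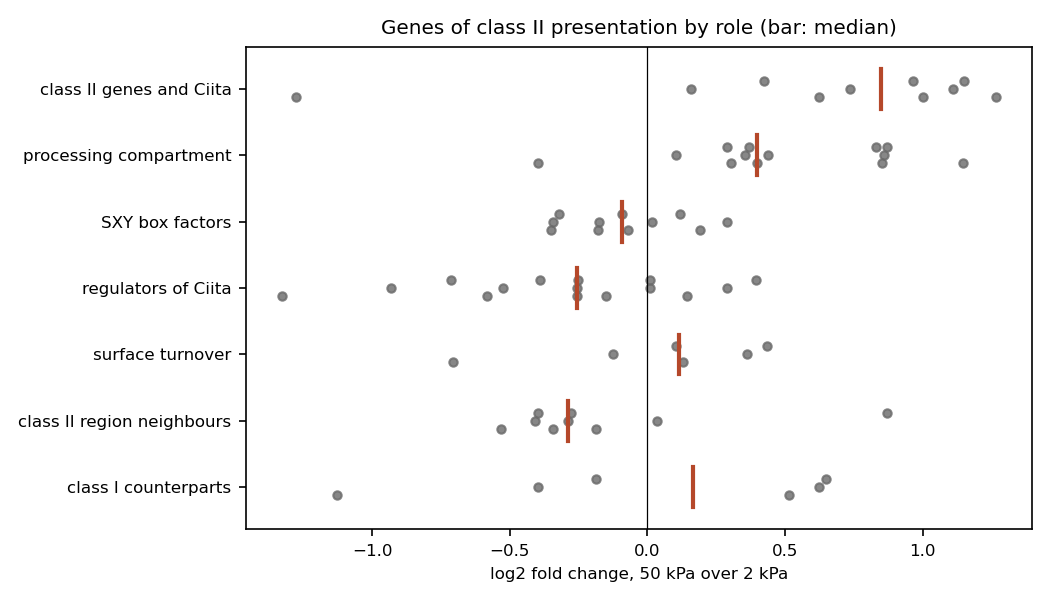
Log2 fold change, 50 kPa over 2 kPa (x axis), of each tested gene (grey) of 7 lists of class II presentation, with the median of each list as a bar. Medians are 0.85 for the class II genes and Ciita, 0.40 for the processing compartment, -0.09 for the X and Y box (SXY) factors and -0.26 for regulators of Ciita.

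Other cells that carry class II were followed by their markers. B cell markers fell in 7 of 11 tested genes and rose in 0 by edgeR, where 1.98% of all tested genes fell and 1.47% rose. Their summed level was 69.4 to 73.8 CPM at 50 kPa, against 115 to 154 CPM at 2 kPa. Cd79b, a signalling chain of the B cell receptor, fell to 1.37 to 1.96 CPM at 50 kPa, against 9.10 to 17.3 CPM at 2 kPa (-2.81 ± 0.33, edgeR adjusted p = 0.0291), and Vpreb3 had 0 counts in 50 kPa replicates 1 and 2. Cd22, named after its values were seen, ran the other way at 40.1, 45.4 and 32.7 CPM at 50 kPa and 21.7, 8.04 and 16.2 CPM at 2 kPa. Plasma cell markers fell in 3 of 5 tested genes and rose in 0, with sums of 389 to 587 CPM at 50 kPa and 1207 to 1854 CPM at 2 kPa. At 50 kPa the sum was mostly Xbp1 (301 to 343 CPM), which was not called and was named after its values were seen. Sdc1, also named after its values were seen, had a higher mean at 50 kPa (0.36 ± 0.48, edgeR adjusted p = 0.638). It had 71.6, 67.9 and 150 CPM at 50 kPa and 35.8, 80.0 and 110 CPM at 2 kPa, which overlap. Of the called genes, Igj had 16.9 to 84.1 CPM at 50 kPa and 761 to 1209 CPM at 2 kPa. Mzb1 had 2.27 to 7.44 CPM at 50 kPa and 45.8 to 74.1 CPM at 2 kPa. Tnfrsf17, untested, was at or near 0 in every library, at 0 at 50 kPa and 0.0518 to 0.0901 CPM at 2 kPa. Without 50 kPa replicate 1 or 2, or without 2 kPa replicate 2 or 3, edgeR called 0 of all tested genes lower, markers included. The size of the differences was kept: Cd79b stood at -2.91 and -2.66 without 50 kPa replicate 1 and 2, and at -2.43 and -2.97 without 2 kPa replicate 2 and 3.

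Of 13 tested markers of macrophages 10 had a positive fold change and 3 a negative one, and edgeR called 0. At an unadjusted p under 0.05, 7 were higher and 0 lower, beside 13.0% and 14.8% of tested genes, and DESeq2 called 5 higher, beside 8.52%. The negative ones, named after their values were seen, were Fcgr1 (-0.71), Cd14 (-0.59) and Mertk (-0.06). Their summed level was 5956 to 6465 CPM at 50 kPa and 2633 to 4475 CPM at 2 kPa, lowest in 2 kPa replicate 2, as for most class II genes. Apoe, a lipid carrier of macrophages, stood at 1.94 ± 0.45 (edgeR adjusted p = 0.0675). Among 14 tested markers of GM-CSF dendritic cells 2 fell and 0 rose by edgeR, beside 1.98% and 1.47% of tested genes. Those that fell were Adam23 (-1.02 ± 0.17, edgeR adjusted p = 0.0394) and Cd226 (-2.28 ± 0.43, edgeR adjusted p = 0.0486). In all, 10 of the 14 had a negative fold change, with a median of -1.12, and in 9 the groups separated with 50 kPa lower, beside 16.9% of tested genes. At an unadjusted p under 0.05 by edgeR, 1 was higher and 9 lower, beside 13.0% and 14.8% of tested genes. DESeq2 likewise called 1 higher and 9 lower, beside 8.52% and 9.51%. The summed level of that list overlapped, at 3421 to 4321 CPM at 50 kPa and 3453 to 6115 CPM at 2 kPa. Its abundant genes lay on both sides. Itgax, which encodes CD11c and marks dendritic cells and macrophages, had 2825, 2958 and 1412 CPM at 50 kPa and 1109, 299 and 996 CPM at 2 kPa. Fscn1, an actin bundler of mature dendritic cells, had 124, 105 and 248 CPM at 50 kPa and 370, 555 and 834 CPM at 2 kPa. Both were named after their values were seen, and neither passed edgeR's threshold.

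Neutrophils, which carry little class II, were also followed. Their markers fell in 5 of 9 tested genes and rose in 0, beside the 1.98% and 1.47% of all tested genes. Their sum was 821 to 1594 CPM at 50 kPa and 3684 to 7468 CPM at 2 kPa, highest in 2 kPa replicate 2, the library with the lowest H2-Aa, H2-Ab1, H2-Eb1, H2-DMa, Cd74 and Ciita. Among 5 tested cDC1 markers edgeR called 0, and DESeq2 called 1 lower, beside 9.51% of tested genes. At an unadjusted p under 0.05 edgeR gave 2 higher and 1 lower, beside 13.0% and 14.8%. The sums were 147 to 165 CPM at 50 kPa and 136 to 159 CPM at 2 kPa. They were mostly Wdfy4, named after its values were seen (106 to 128 CPM at 50 kPa, 104 to 128 CPM at 2 kPa). Xcr1, untested, was at or near 0 in every library, with 0, 0 and 0.174 CPM at 50 kPa and 0.0776, 0.120 and 0.0601 CPM at 2 kPa. Of 5 tested plasmacytoid dendritic cell markers Cox6a2 rose and Ly6d fell by edgeR, beside 1.47% and 1.98% of tested genes. Both were low, Cox6a2 at 0.985 to 1.12 CPM at 50 kPa and 0.150 to 0.336 CPM at 2 kPa. Ly6d had 0.328 to 1.10 CPM at 50 kPa and 4.94 to 5.61 CPM at 2 kPa. The sums, 60.3 to 67.1 CPM at 50 kPa and 64.2 to 117 CPM at 2 kPa, were mostly Tcf4. Tcf4, named after its values were seen, had 56.7 to 63.8 CPM at 50 kPa and 56.6 to 109 CPM at 2 kPa. The part of these differences in cell markers in the class II values was not tested.

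**Figure D5:**
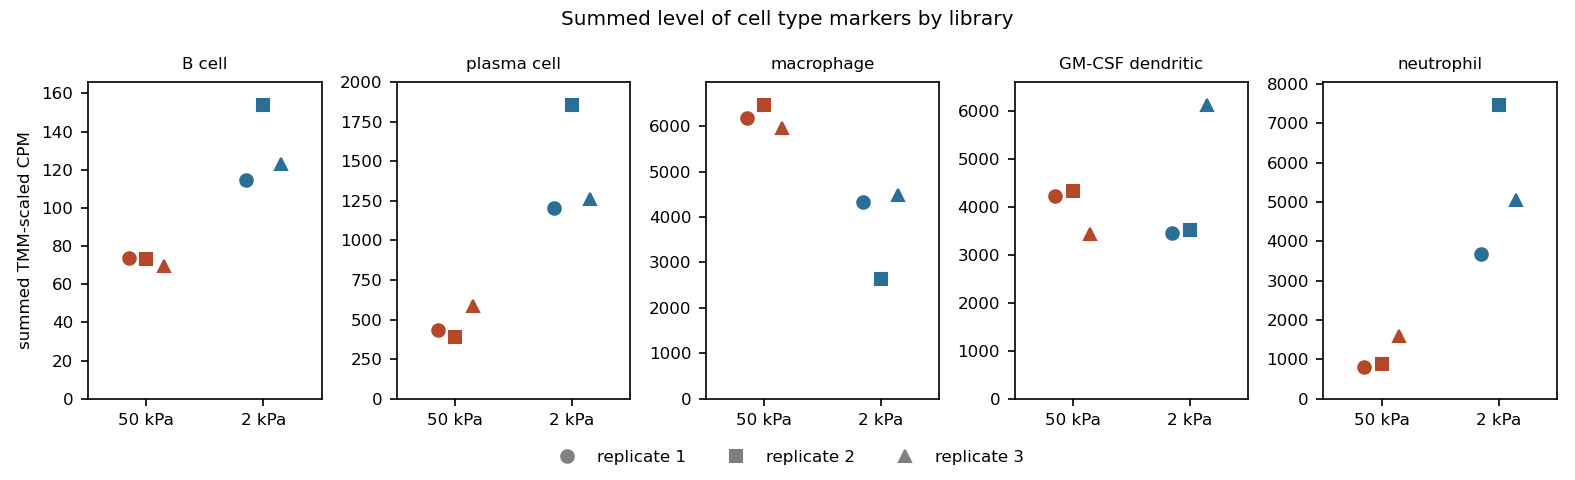
Summed TMM-scaled CPM of 5 lists of cell type markers (y axes from 0) at 50 kPa (left, red) and 2 kPa (right, blue), with symbols for the 3 libraries of a stiffness. B cell, plasma cell and neutrophil sums are lower in every 50 kPa library, macrophage sums are higher (5956 to 6465 CPM, and 2633 to 4475 CPM at 2 kPa), and dendritic cell sums overlap.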

How the data were processed

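PolyA RNA-seq of 3 high tension (50 kPa) and 3 low tension (2 kPa) libraries was used. The authors deposited raw read counts per gene symbol, 1 table a library. Tools named per the submitters' processing notes are TopHat2 2.0.11, HTSeq 0.6.1p2, FastQC 0.11.2 and edgeR (3.8.6 and 3.16.5), with mm10 and hg19 as builds. No source used here gives the annotation, the strand setting or how reads with several matches were counted.

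These counts were tested with edgeR 4.0.16 in R 4.3.3 (filterByExpr with minimum count 10 and total 15, TMM scaling, glmQLFit and glmQLFTest, stiffness as the only term), limma 3.58.1 and DESeq2 1.42.0. Benjamini-Hochberg adjustment covered all 13155 tested genes, and genes with an adjusted p under 0.05 were called. SE is the absolute log2 fold change over the root of F. Log2 CPM used a prior count of 2. The common biological coefficient of variation was 24.6%. The fit was tested on simulated data.

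The members and gene lists were chosen with earlier results of these data known. Named genes are the members, the called genes and the 2 with the smallest p of each other list (for marker lists only some are named), the 5 most like Ciita, and those said to be named after their values were seen. List symbols March1, March8, Emr1 and Igj are older names in the files. Exon lengths and 50-base stretches come from GENCODE vM21. Alternatives were other scalings, filters and tools, replicate number as a block, summing 50 kPa replicates 1 and 2, and leaving out each library. Plots were drawn with matplotlib 3.10.9.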

Additional observations from a re-analysis of the deposited data

How the results depend on the processing

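In 16 other fits 9 of the 10 members kept the sign of their fold change, the exception being Ciita at -0.0937 without low tension replicate 2 (up to 0.346 without 1 library). Called members numbered 0 higher and 0 lower in all fits but 2: DESeq2 gave 5 higher and 1 lower, and replicate number as a block gave 1 lower, H2-Eb2 (-1.17, edgeR adjusted p = 0.0481; adjusted p from 0.0474 by DESeq2 to 0.398 by edgeR over the fits), and 0 higher. Over all genes, calls higher and lower numbered 194 and 260. They were 77 higher with total-count scaling (median log2 fold change -0.162), 20 and 16 with at least 5 CPM in 3 libraries, 1121 and 1251 with DESeq2, 522 lower with the replicate block, and 0 and 0 with high tension replicates 1 and 2 summed. Without 1 library they ranged from 0 to 255 higher and from 0 to 256 lower, with 0 and 0 when high tension replicate 1, or 2, was left out, 1 and 0 without low tension replicate 2, and 3 and 0 without low tension replicate 3. The cause was not tested. Replicate numbers were not used as a pairing: over genes, same-numbered libraries deviated from their group means with r = 0.54, -0.11 and 0.49, and 3 of 6 libraries were closest to their own number. Homer1, Pgs1, Isoc2a, Rhoh and Prr5l turned to -0.0022, -0.0973, -0.00054, -0.0258 and -0.0497 with total-count scaling, and to -0.0447, -0.0517, -0.0729, -0.0484 and -0.0853 without low tension replicate 2, with highest values without 1 library of 0.233, 0.0849, 0.222, 0.201 and 0.161. No member is near the depth limit: the lowest count, H2-Eb2 in high tension replicate 2, was 218.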
